A study of Mus musculus with 12 samples.

Results

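The BCL2 family decides at the mitochondrion whether a lymphocyte survives, and 10 of its genes were followed through 4 sorted populations of CD4+ T cells. They were taken by name from a table of 17523 genes listed by Entrez identifier: *Bcl2*, *Bcl2l1* and *Mcl1*, which keep cells alive, *Bax* and *Bak1*, which open the outer mitochondrial membrane, and *Bcl2l11*, *Bid*, *Bad*, *Pmaip1* and *Bbc3*, which carry only the BH3 domain and start the process. All 10 were in the table and all 10 passed the filter on low values. The libraries came from spleens of unimmunized C57BL/6 *Gr/fr* mice, whose *Csf2* allele (the GM-CSF gene) also encodes iCre and BFP under its own promoter and whose Rosa26 locus holds eYFP behind a stop cassette that Cre removes. Every group shared these alleles, so a YFP+ cell is one in which the *Csf2* allele was active at some time, and a YFP- cell is one in which the cassette was not removed. The 4 groups were YFP- and YFP+ naïve cells (CD62L+CD44-) and YFP- and YFP+ effector memory cells (CD62L-CD44hi, here TEM), with 3 libraries each. The cells received no treatment after sorting, and the age of the animals used for sequencing was not given in the sources used here. The question put to these groups was whether cells that had expressed GM-CSF differ from those that had not, among naïve and among TEM cells.

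BCL2, BCL-XL (from *Bcl2l1*) and MCL1 bind and hold BAX, BAK and the BH3-only proteins. When BH3-only proteins occupy them, BAX and BAK form pores, cytochrome c leaves the mitochondrion and caspases are activated. In T cells, BCL2 is maintained by signals of the IL-7 receptor, and BIM (from *Bcl2l11*) removes autoreactive thymocytes and ends immune responses. Much of the control of these proteins is exerted after transcription, for MCL1, BIM, BID and BAD in particular, and only RNA was measured here.

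Between 40974124 and 57822269 reads per library fell on genes, with a median of 44929387. All values below are normalized counts, that is reads divided by the size factor of the library, and a fold change is a difference of log2(normalized count + 1) from limma over all 15587 genes tested, called at an adjusted p of 0.05 or less. *Cd4* lay between 36078 and 67471 and *Cd3e* between 30224 and 47263 in every library, while *Cd44* was 2334 to 3372 in naïve and 21778 to 29383 in TEM cells. The CD4+ T cell identity and the CD44 gate were thus present at the RNA level. Genes that mark other cells were read too. In YFP- TEM libraries 8 of 8 markers of conventional dendritic cells were higher than in YFP- naïve cells, and their summed level was 69581 to 142630, against 3870 to 10193 in YFP+ TEM and 1012 to 3919 in the 6 naïve libraries. None of these 8 genes was at 0 throughout any group.

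Per kilobase of exon (GENCODE M21 exon union), *Mcl1* had the highest level of the 10 genes, with a mean of 8294 normalized counts per kb over the 12 libraries, followed by *Bbc3* with 3878. *Bak1* (1819), *Bax* (1392), *Bcl2* (1115) and *Bcl2l11* (793) formed the middle of the order on this scale. *Pmaip1* (352), *Bcl2l1* (262), *Bid* (222) and *Bad* (186) were the lowest. The order depended on the group: in YFP- TEM cells *Pmaip1* reached 974 normalized counts per kb and stood above *Bcl2* at 525, whereas in YFP- naïve cells *Pmaip1* was at 41.6 and *Bcl2* at 1208.

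**Figure D1:**
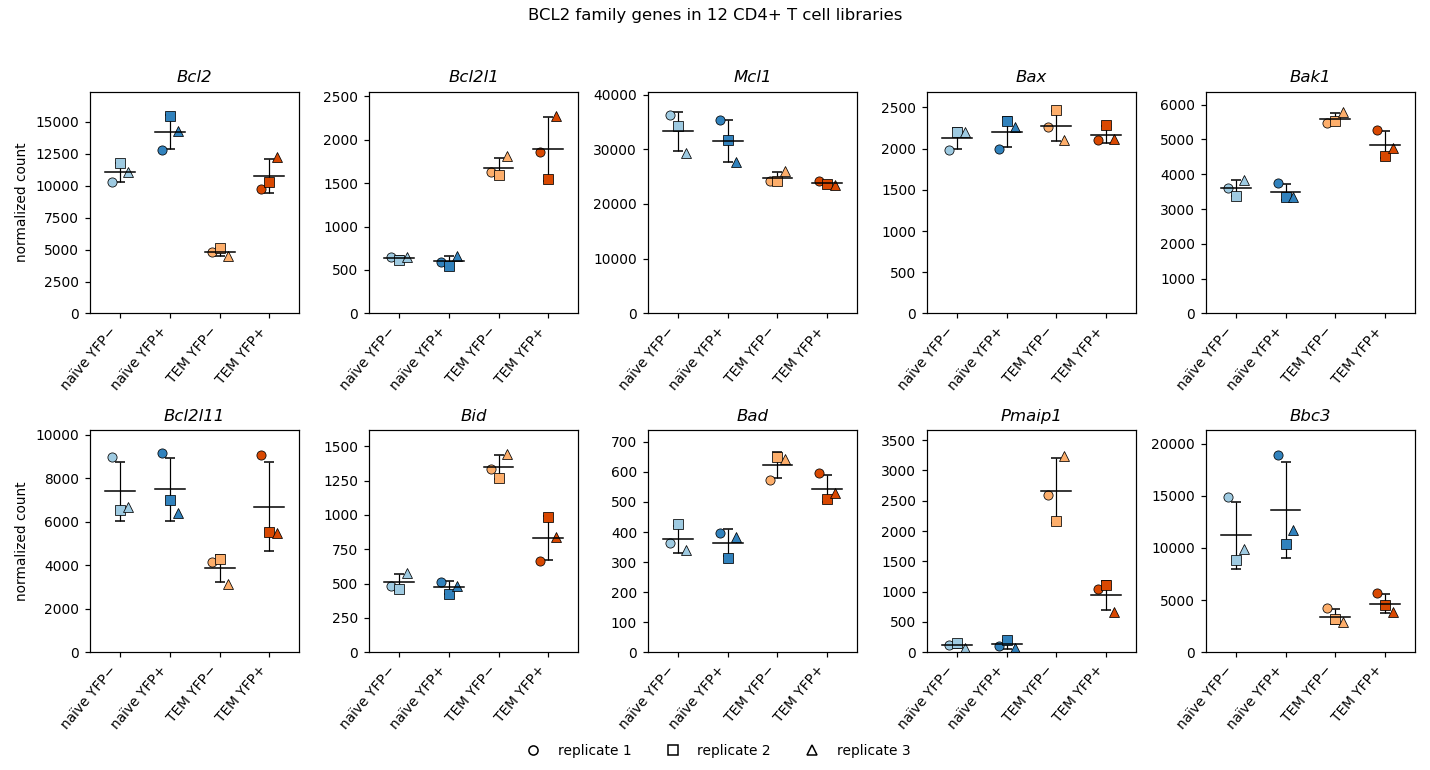
Normalized counts of the 10 BCL2 family genes in each library (points, with the shape giving the replicate number), with the mean (bar) and SD (whisker) of the 3 libraries in each group. *Bcl2* was lowest in the YFP- TEM libraries (4473 to 5139), *Pmaip1* and *Bid* were highest there, and *Bax* overlapped between all groups.

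In TEM cells, 4 of the 10 genes differed between YFP+ and YFP- libraries: *Bcl2* and *Bcl2l11* were higher and *Bid* and *Pmaip1* were lower in YFP+ cells. Of all genes tested, 6.97% passed in this comparison, 2.3% higher and 4.67% lower. Of the genes called, 33.0% were higher, and after quantile normalization 46.0% were. The median log2 fold change of the 10 genes was -0.06, beside -0.01 over all genes. YFP+ and YFP- libraries did not overlap for 5 of the 10 (the 4 named and *Bak1*), and 25.0% of all genes showed such a separation.

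*Bcl2* rose more than any other gene of the 10. The survival gene was at 4797, 5139 and 4473 normalized counts in the YFP- TEM libraries (replicates 1, 2 and 3) and at 9779, 10283 and 12290 in the YFP+ TEM libraries. The lowest YFP+ value lay well above the highest YFP- value. The difference was 2.24-fold (95% interval 1.91 to 2.62), a log2 fold change of 1.16 with SE 0.10 and an adjusted p of 9.57e-05 in limma. It was called without any single one of the 12 libraries, at an adjusted p of at most 9.35e-04. In bulk samples, fewer cells of a type that express a gene and less of its RNA per cell cannot be told apart, which holds for this and every value below.

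The other survival genes did not follow *Bcl2*. *Bcl2l1* was at 1622, 1596 and 1809 normalized counts in YFP- and at 1860, 1541 and 2276 in YFP+ TEM cells, which overlapped (log2 fold change 0.16, SE 0.13, limma adjusted p = 0.669). *Mcl1*, whose protein turns over within hours and is needed continuously by T cells, was at 24111, 24120 and 26068 against 24215, 23669 and 23471. Its log2 fold change was -0.06 with a 95% interval from -0.30 to 0.18, so a difference beyond that range was not seen. The ratio of *Bcl2l1* to *Bcl2* counts was 0.351 ± 0.048 (SD, n = 3) in YFP- and 0.175 ± 0.022 (SD, n = 3) in YFP+ TEM cells.

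Among the pore-forming genes, *Bax* was at 2257, 2467 and 2105 normalized counts in YFP- and 2106, 2291 and 2112 in YFP+ TEM cells, with a log2 fold change of -0.07 (95% interval -0.26 to 0.13). *Bak1*, the relative that resides in the mitochondrial membrane, was at 5463, 5526 and 5773 in YFP- and 5266, 4509 and 4755 in YFP+ TEM cells. The groups of *Bak1* did not overlap, with a log2 fold change of -0.21 (SE 0.08) that missed the threshold over all genes (limma adjusted p = 0.192). It did pass after quantile normalization (adjusted p = 0.0340) and in DESeq2 with a term for the replicate (adjusted p = 0.0298).

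The BH3-only genes moved in both directions. *Bcl2l11* was at 4159, 4288 and 3147 normalized counts in YFP- TEM libraries and at 9059, 5535 and 5491 in YFP+ TEM libraries. All YFP+ values were above all YFP- values, and the YFP+ library of replicate 1 stood apart from its group. The log2 fold change was 0.76 (SE 0.21), or 1.7-fold, with a limma adjusted p of 0.0464, close to the threshold. The call was lost in 8 of the 12 fits that left out a library, with adjusted p from 0.0513 to 0.214. Without that YFP+ library the log2 fold change was 0.53 (adjusted p = 0.173). With the replicate number as a block it was called at an adjusted p of 0.00135.

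*Bid*, which links death receptors to the mitochondrion once caspase-8 has cut its product, was at 1331, 1268 and 1444 normalized counts in YFP- and 665, 985 and 839 in YFP+ TEM cells. Every YFP+ library was below every YFP- library. *Bid* fell by 0.72 on the log2 scale (SE 0.15, limma adjusted p = 0.00988), and without replicate 3 of YFP- TEM cells the adjusted p was 0.0565.

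*Pmaip1*, which encodes NOXA, a binding partner of MCL1, had the largest difference of the 10 genes on the log2 scale. Its values were 2592, 2165 and 3230 normalized counts in YFP- and 1043, 1112 and 671 in YFP+ TEM cells. The groups were well separated, and YFP+ cells had 0.351 times the level of YFP- cells (95% interval 0.198 to 0.62). *Pmaip1* fell by 1.51 on the log2 scale (SE 0.38, limma adjusted p = 0.0294). The call was lost without replicate 1 or 3 of either TEM group, with adjusted p of 0.0866 and 0.138 for the YFP- and 0.0651 and 0.130 for the YFP+ libraries.

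*Bbc3* (PUMA) and *Bad*, the remaining BH3-only genes, were not called. *Bbc3* was at 4221, 3158 and 2894 normalized counts in YFP- and 5673, 4517 and 3826 in YFP+ TEM cells, and the groups overlapped. Replicate 1 had the highest *Bbc3* value in each of the 4 groups, and within each replicate number the YFP+ library was above the YFP- library. The log2 fold change of *Bbc3* was 0.45 (SE 0.25, limma adjusted p = 0.423), and with the replicate number as a block it was called (adjusted p = 0.0108), which made 5 called genes of the 10. *Bad* was at 573, 651 and 644 against 595, 508 and 529, with a log2 fold change of -0.19 (limma adjusted p = 0.590).

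**Figure D2:**
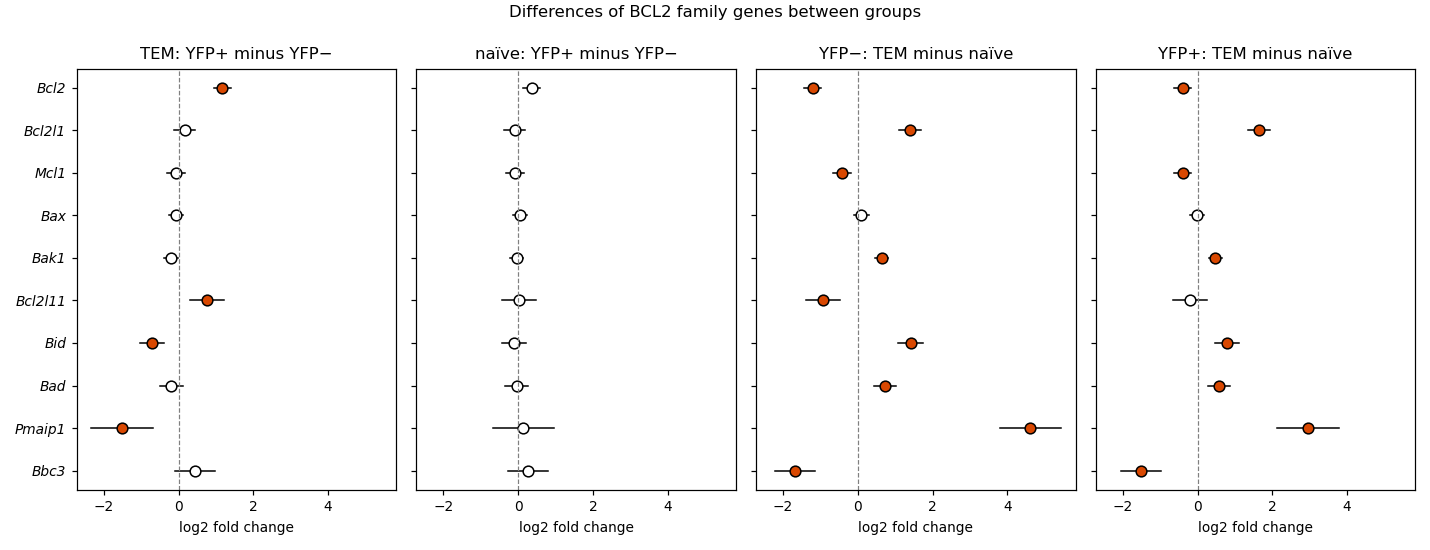
Log2 fold changes (points) with 95% intervals (lines) of the 10 genes in the 4 comparisons. Filled points had a limma adjusted p of 0.05 or less over all genes tested, which held for 4, 0, 9 and 8 of the 10 genes from left to right.

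Markers of other cells differed between the same TEM groups. Beside the dendritic cell sums above, 7 of 8 conventional dendritic cell markers were lower in YFP+ TEM cells, among them the MHC class II gene *H2-Ab1* (47727, 35321 and 71386 normalized counts in YFP- against 5089, 1938 and 3926 in YFP+). Most of the sum in YFP- TEM cells came from *H2-Ab1* and a further MHC class II gene, *H2-Aa*, with means of 51478 and 37665 there. The libraries of YFP- TEM cells ranked replicate 3, 1 and 2 by the summed dendritic cell level (142630, 96309 and 69581). *Pmaip1* and *Bid* had the same rank order within that group, and *Bcl2* and *Bcl2l11* had the reverse order. Within YFP+ TEM cells, whose sums were 10193, 3870 and 8188, *Bid* and *Pmaip1* were highest in replicate 2, which had the lowest sum. The part of dendritic cell RNA in the differences of these 4 genes was not tested.

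Other lists moved as well. Plasmacytoid dendritic cell markers summed to 11496 to 21653 in YFP- and 4436 to 7671 in YFP+ TEM cells (7 of 8 lower in YFP+), with *Klk1* at 0 in all YFP- naïve libraries. The remaining marker, *Ccr9*, had a mean of 975 in YFP- and 2442 in YFP+ TEM cells and was not called. Macrophage and monocyte markers summed to 7753 to 14713 against 2187 to 4417 (3 of 8 lower). Against the sum, *C1qa*, *Mertk* and *Fcgr1* of this list had higher means in YFP+ TEM cells and were not called. Their means in YFP- and YFP+ TEM cells were 135 and 382, 21.2 and 92.5, and 3.25 and 14.1. The other members of the list had lower means in YFP+ cells. CD8 T cell markers summed to 685 to 1490 against 187 to 373 (2 of 2 lower). NK and invariant NKT cell markers went the other way, from 1104 to 1280 in YFP- to 4278 to 7040 in YFP+ TEM cells (6 of 8 higher), with *Ncr1* at 0 in the YFP- TEM libraries. Regulatory T cell markers summed to 71504 to 89888 against 56624 to 66173 (2 of 7 lower, 1 of them *Foxp3*). Of that list *Il2ra* went the other way, with means of 4999 in YFP- and 7783 in YFP+ TEM cells. *Il2ra* was not called in the main fit and was called with the replicate block. The other members of the list had lower means in YFP+ cells. B cell markers summed to 459 to 590 against 377 to 995 (2 of 8 higher). Of the CD4 T cell markers, 1 of 8 was lower. Their part in the differences of the BCL2 family genes was not tested.

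**Figure D3:**
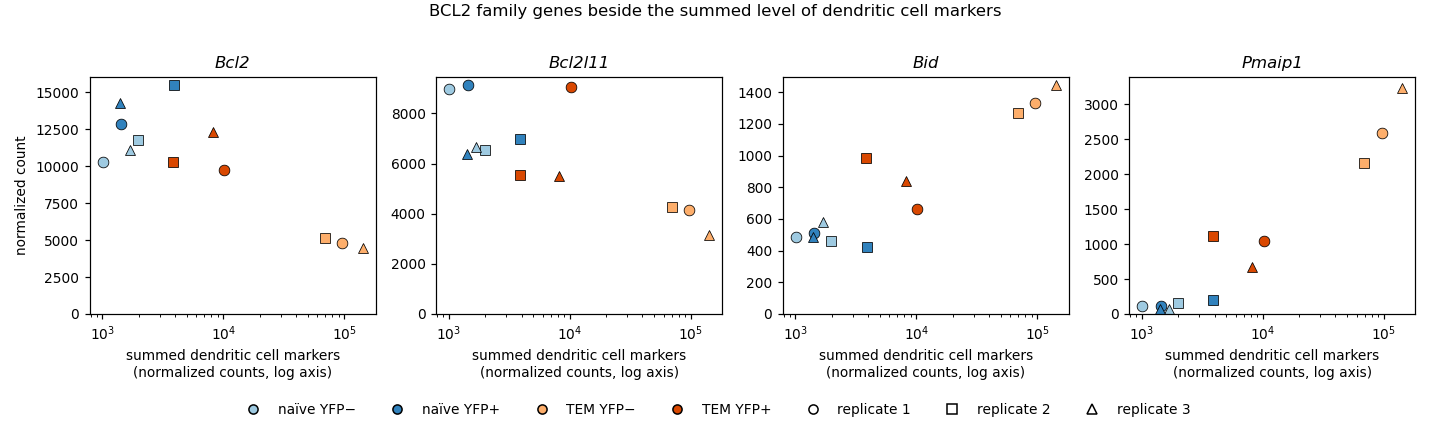
Normalized counts of *Bcl2*, *Bcl2l11*, *Bid* and *Pmaip1* (vertical axes, linear from 0) against the summed normalized counts of 8 conventional dendritic cell markers (horizontal axes, log scale) in the 12 libraries. The YFP- TEM libraries lie at 69581 or above on the horizontal axis and no other library exceeds 10193, so the marker level and the group cannot be told apart across groups.

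In naïve cells, none of the 10 genes differed between YFP+ and YFP- libraries at the threshold in limma, where 0.00642% of all genes (1 gene) passed. At an unadjusted p of 0.05 or less, 1 of the 10 passed, beside 3.32% of all genes. edgeR and DESeq2 on the recovered reads called 0 of the 10, and DESeq2 with the replicate block called 1. The median log2 fold change of the 10 genes was -0.01, beside 0.01 over all genes.

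That 1 gene was *Bcl2*. It was at 10263, 11793 and 11117 normalized counts in YFP- naïve libraries and at 12834, 15488 and 14298 in YFP+ naïve libraries. The groups did not overlap, which held for no other of the 10 genes and for 5.38% of all genes. The log2 fold change was 0.36 (SE 0.10, 95% interval 0.13 to 0.59), or 1.28-fold, and the limma adjusted p was 1. It was 0.310 with the replicate block, and DESeq2 with the block gave 0.0286. The naïve YFP+ library of replicate 2, with the highest *Bcl2*, also had the highest summed macrophage level of the naïve libraries (4459, against 577 to 910 in its group), and without it the log2 fold change was 0.30.

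The remaining 9 genes had overlapping values in naïve cells. *Bcl2l11* was at 8987, 6541 and 6662 in YFP- and 9149, 6984 and 6392 in YFP+ naïve libraries, with a log2 fold change of 0.02 (95% interval -0.43 to 0.47). *Bbc3* was at 14890, 8865 and 9854 against 18888, 10358 and 11694, a log2 fold change of 0.27 (95% interval -0.27 to 0.81), and again each YFP+ library was above the YFP- library of its number. *Pmaip1* was near the bottom of its range, at 117, 159 and 64.5 against 108, 204 and 73.5 normalized counts (log2 fold change 0.14, 95% interval -0.68 to 0.96). *Mcl1*, *Bax*, *Bak1*, *Bid*, *Bad* and *Bcl2l1* had log2 fold changes between -0.11 and 0.05.

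The YFP difference itself was compared between TEM and naïve cells by the interaction term of the same model. Only *Bcl2* of the 10 genes passed: its YFP difference was larger in TEM cells by 0.80 on the log2 scale (SE 0.15, limma adjusted p = 0.0109), and 3.55% of all genes passed this test. It passed without any single library, at an adjusted p of at most 0.0407. *Pmaip1* (-1.65, adjusted p = 0.151), *Bid* (-0.61, adjusted p = 0.189) and *Bcl2l11* (0.74, adjusted p = 0.292) did not pass in limma. With the replicate block 2 of the 10 passed, *Bcl2* and *Bcl2l11* (adjusted p = 0.0206), and DESeq2 without the block called *Bcl2* and *Pmaip1* (adjusted p = 0.0286). A difference between TEM and naïve cells in the YFP effect on *Bid* was thus not shown, although *Bid* was called in TEM cells and not in naïve cells.

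Between TEM and naïve cells of the YFP- fraction, 9 of the 10 genes differed, 5 higher and 4 lower in TEM cells, where 49.8% of all genes passed (29.9% higher and 19.9% lower). The median log2 fold change of the 10 was 0.37, beside 0.05 over all genes, and 9 of the 10 did not overlap, as did 59.0% of all genes. In the YFP+ fraction 8 of the 10 differed, 5 higher and 3 lower, where 41.4% of all genes passed (24.7% higher and 16.7% lower), the median was 0.23 beside 0.03, and 8 of the 10 did not overlap, as did 48.7% of all genes. The scaling mattered for the balance of directions: of all genes called, 60.0% and 59.6% were higher in TEM cells in the YFP- and YFP+ fractions, and after quantile normalization 37.7% and 39.8% were. The median of all genes then moved to -0.20 and -0.14, and of the 10 genes 4 were higher and 3 lower in the YFP- fraction and 4 higher and 1 lower in the YFP+ fraction. None of the called genes changed direction. These comparisons use the same libraries as the YFP comparisons above, so their values are given side by side only. The dendritic cell markers moved here too, with 8 of 8 higher in TEM cells of the YFP- fraction and 7 of 8 in the YFP+ fraction, and their part was not tested.

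Survival genes moved in opposite directions. *Bcl2* fell by 1.20 on the log2 scale from naïve to TEM cells in the YFP- fraction (SE 0.10, limma adjusted p = 1.41e-06) and by 0.40 in the YFP+ fraction (SE 0.10, adjusted p = 0.00858, and 0.0758 after quantile normalization). Ordered by level, *Bcl2* was highest in YFP+ naïve cells (14207 ± 1329 normalized counts, SD, n = 3), then YFP- naïve (11058 ± 767, SD, n = 3), YFP+ TEM (10784 ± 1329, SD, n = 3) and YFP- TEM cells (4803 ± 333, SD, n = 3). YFP- naïve and YFP+ TEM libraries, the neighbours in the middle of that order, overlapped. *Bcl2l1* was at 609 to 653 and 541 to 662 normalized counts in YFP- and YFP+ naïve cells, and it was 2.62-fold and 3.13-fold higher in the TEM cells of the same fraction (limma adjusted p = 2.88e-06 and 1.02e-06). *Mcl1* was lower in TEM cells by a log2 fold change of -0.42 (adjusted p = 0.00692) in the YFP- and -0.40 (adjusted p = 0.0113) in the YFP+ fraction. After quantile normalization these values were -0.16 (adjusted p = 0.139) and -0.20 (adjusted p = 0.0907).

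The pore-forming genes differed from each other. *Bak1* was at 3363 to 3822 in YFP- and 3340 to 3752 in YFP+ naïve cells and was higher in TEM cells, with log2 fold changes of 0.64 (limma adjusted p = 3.72e-05) and 0.47 (adjusted p = 5.42e-04). *Bax* was between 1980 and 2467 normalized counts in all 12 libraries. Its log2 fold changes of 0.10 (95% interval -0.10 to 0.29) and -0.02 (95% interval -0.21 to 0.18) were the smallest of the 10 genes in both fractions.

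Of the BH3-only genes, *Pmaip1*, *Bid* and *Bad* were higher and *Bbc3* lower in TEM cells of both fractions. *Pmaip1* was 24.4-fold higher in YFP- TEM than in YFP- naïve cells (95% interval 13.8 to 43.2, log2 fold change 4.61, limma adjusted p = 8.61e-07). In the YFP+ fraction the difference was 7.79-fold (95% interval 4.4 to 13.8, log2 fold change 2.96, adjusted p = 4.87e-05). *Bid*, at 422 to 579 normalized counts in naïve cells, was higher by 1.41 and 0.80 on the log2 scale (adjusted p = 6.51e-06 and 9.02e-04), and *Bad*, whose product is held inactive by phosphorylation downstream of growth factors, by 0.73 and 0.58 (adjusted p = 7.96e-04 and 0.00486). After quantile normalization *Bad* was at 0.27 (adjusted p = 0.140) and 0.29 (adjusted p = 0.134).

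*Bbc3* fell by 1.69 on the log2 scale in the YFP- fraction (limma adjusted p = 1.02e-04) and by 1.51 in the YFP+ fraction (adjusted p = 3.43e-04), from 8865 or more in every naïve library to 5673 or less in every TEM library. *Bcl2l11* was lower in YFP- TEM than in YFP- naïve cells (log2 fold change -0.93, SE 0.21, adjusted p = 0.00253). In the YFP+ fraction its log2 fold change was -0.19 (95% interval -0.64 to 0.26, adjusted p = 0.503), and the YFP+ TEM libraries overlapped with both naïve groups. Ordered by mean level, the groups stood as they did for *Bcl2*, and the YFP- TEM libraries were the ones separated from the rest.

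The counts of *Bcl2* relative to its opponents were formed within each library. The ratio to *Bcl2l11* was 1.54 ± 0.35 and 1.95 ± 0.48 for naïve YFP- and YFP+ libraries and 1.26 ± 0.14 and 1.73 ± 0.59 for the TEM ones (SD, n = 3 each), and these values overlapped. *Bcl2* over *Bid* was 3.58 ± 0.48 in YFP- TEM and 13.3 ± 2.4 in YFP+ TEM cells (SD, n = 3 each), beside 21.9 and 30.5 in YFP- and YFP+ naïve cells. *Bcl2* over *Pmaip1* was 1.87 ± 0.49 and 12.3 ± 5.2 in the same TEM groups (SD, n = 3 each), beside 111 and 130 in naïve cells. These ratios are of counts not divided by length, so only their differences between groups can be read.

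Genes whose level over the 12 libraries was nearest to that of *Bcl2*, by the root mean square difference of centred log2 values among genes whose mean was 50 normalized counts or more, were *Ppm1j* (0.17), *Hs3st3b1* (0.21) and *Rcn1* (0.22), where the median gene was at 0.64. *Ppm1j*, for example, had means of 895 and 1204 normalized counts in YFP- and YFP+ naïve cells and 409 and 769 in YFP- and YFP+ TEM cells. For *Bcl2l11* they were the unnamed Entrez gene 100861934 (0.15), *Itih5* (0.16) and *Epb41* (0.16), with the median gene at 0.52. Among the 10 genes, *Bcl2l11* was the nearest to *Bcl2* (0.38) and *Pmaip1* the farthest (2.53).

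The wider pathway was read from 4 lists. Of 15 other BCL2 family genes, 13 were in the table (without *Bcl2l10* and *Hrk*) and 12 were tested (without *Bok*). In the TEM comparison of YFP+ with YFP- cells 1 was higher, 1 was lower and 10 did not pass, where 6.97% of all genes passed. The median log2 fold change of the list was -0.26, beside -0.01 over all genes. *Bik*, a BH3-only gene, rose from 71.8 ± 14.0 to 208 ± 25.2 normalized counts (SD, n = 3 each, log2 fold change 1.53, limma adjusted p = 0.0125). *Bcl2a1a*, an A1 survival gene, fell from 1182 ± 57.1 to 532 ± 99.9 (SD, n = 3 each, log2 fold change -1.17, adjusted p = 0.00902), and in the interaction it was the 1 gene of the list that passed (-1.69, adjusted p = 0.0159).

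Between YFP- TEM and YFP- naïve cells 8 of the 12 were higher and 1 was lower, where 29.9% of all genes were higher and 19.9% lower. The leading ones of the list were *Bcl2a1a*, *Bcl2a1d* and *Bcl2a1b* with log2 fold changes of 5.13, 4.65 and 3.86. The BH3-only gene *Bmf* followed with 1.38 (limma adjusted p at most 7.92e-06 for these genes). In the YFP+ fraction 6 were higher and 0 lower, where 24.7% of all genes were higher and 16.7% lower. In naïve cells 0 of 12 passed between YFP+ and YFP- in limma, edgeR and DESeq2 (1 at an unadjusted p of 0.05 or less). The A1 genes are near-identical copies, so the split of reads among them is uncertain.

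**Figure D4:**
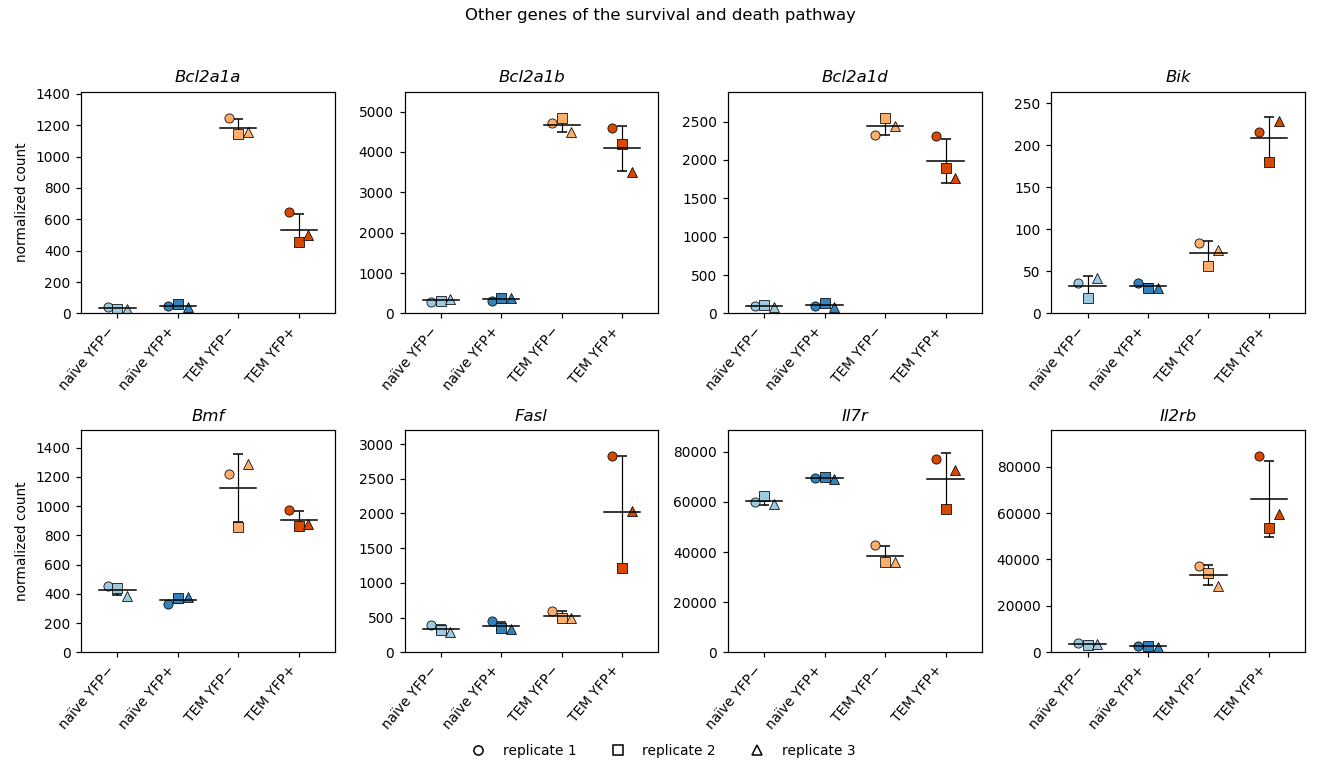
Normalized counts of 8 further genes of the survival and death pathway in each library (points), with the mean (bar) and SD (whisker) of 3 libraries per group. *Bcl2a1a* was lower, and *Bik*, *Fasl*, *Il7r* and *Il2rb* were higher, in YFP+ than in YFP- TEM cells at a limma adjusted p of 0.05 or less.

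Of 15 genes of caspase activation downstream of the mitochondrion, 0 passed between YFP+ and YFP- TEM cells in limma, beside 6.97% of all genes. In the same fit 7 of the list had an unadjusted p of 0.05 or less. The share of all genes at that unadjusted threshold is not given here, so this count has nothing to be set against. edgeR called 0, DESeq2 called 1 (*Casp6*), and limma with the replicate block called 3 (*Casp6* among them, all 3 lower in YFP+ cells). The median log2 fold change of the list was -0.08. Between YFP- TEM and YFP- naïve cells 7 were higher and 1 was lower, among them *Birc5* (survivin, which also serves in cell division, log2 fold change 4.74) and *Apaf1* (the scaffold that binds cytochrome c, 1.17), with limma adjusted p at most 8.70e-07. These 8 of 15 stand beside 49.8% of all genes. In the YFP+ fraction 4 were higher and 1 was lower, beside 41.4% of all genes.

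Of 11 death receptor pathway genes, 2 were higher and 0 lower in YFP+ than in YFP- TEM cells, where 2.3% of all genes were higher and 4.67% lower. *Fasl*, the ligand of Fas, was at 528 ± 60.8 in YFP- and 2028 ± 804 normalized counts in YFP+ cells (SD, n = 3 each, log2 fold change 1.86, limma adjusted p = 7.24e-04), and its YFP difference was larger in TEM than in naïve cells (1.71, adjusted p = 0.0191). *Tnfsf10*, which encodes TRAIL, had a log2 fold change of 0.50 (adjusted p = 0.0383). From YFP- naïve to YFP- TEM cells *Tnfsf10*, *Ripk3* and *Tradd* were higher by 0.70, 0.59 and 0.33, and *Casp8*, whose product cuts BID, was lower (-0.42). In all, 4 of the 11 were higher and 2 lower, where 49.8% of all genes passed, and with the replicate block 4 were higher and 5 lower (*Fas*, *Tnfrsf1a* and *Ripk1* in addition).

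Of 21 upstream regulators, 2 were higher and 1 was lower in YFP+ than in YFP- TEM cells, beside 2.3% and 4.67% of all genes. The median log2 fold change of the list was 0.06. *Il7r*, a chain of the IL-7 receptor, was at 38376 ± 3861 in YFP- and 69036 ± 10665 normalized counts in YFP+ TEM cells (SD, n = 3 each, log2 fold change 0.84, limma adjusted p = 0.00171). *Il2rb*, shared by the receptors of IL-2 and IL-15, had a log2 fold change of 0.96 (adjusted p = 0.00268), and *E2f1* one of -0.85 (adjusted p = 0.00750). With the replicate block 7 of the 21 passed, where 1869 of all 15587 genes did. They were these 3 regulators and *Il2ra*, *Il2rg*, *Foxo3* and *Ddit3*, the last 4 higher in YFP+ cells. Between YFP- TEM and YFP- naïve cells 5 were higher and 7 lower, where 29.9% of all genes were higher and 19.9% lower. In edgeR, in DESeq2 and with the replicate block 10 were lower, where 7810, 7954 and 9100 of all 15587 genes passed in either direction. Those with the smallest adjusted p were *Il2rb* (3.22), *E2f1* (2.23), *Foxo1* (-1.22) and *Akt1* (0.57). *Foxo1* encodes a factor known to act on *Bcl2l11* and *Il7r*, and its log2 fold change between YFP+ and YFP- TEM cells was 0.18 (95% interval -0.16 to 0.51).

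The promoters of *Bcl2l11* and *Bbc3* are shown because they held letters that FOXO factors are known to bind. RefSeq promoters on GRCm38.p6 (250 bases before to 50 after a start) were found for 9 of the 10 genes, 15 promoters in all. The letters GTAAACA (or TGTTTAC on the other strand) were in the promoters of *Bcl2l11* and *Bbc3* and in 3.65% of the 32851 promoters searched. The match begins 227 bases before the start of *Bcl2l11* on the plus strand. For *Bbc3* the table holds 3 starts, and the match begins 167 bases before the one at position 16310261, where it reads on the opposite strand. That start lies inside the gene, whose first base is 16308398, so the match is within *Bbc3* and upstream only of this start. The sequences run 5′ to 3′ on the plus strand with the matched letters in capitals, first the 250 bases before *Bcl2l11* at chr2:128125788-128126037 and then 29 bases of *Bbc3* at chr7:16310083-16310111.

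*Bcl2l11*: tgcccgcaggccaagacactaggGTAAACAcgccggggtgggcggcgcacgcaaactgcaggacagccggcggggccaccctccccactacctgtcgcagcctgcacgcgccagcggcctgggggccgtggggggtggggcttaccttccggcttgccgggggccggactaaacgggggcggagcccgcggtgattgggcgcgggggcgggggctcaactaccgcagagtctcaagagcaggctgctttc
*Bbc3*: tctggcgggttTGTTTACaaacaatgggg

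Of the other motifs searched on both strands, the E-box CACGTG (7.15% of all promoters) was in those of *Bbc3* and *Bax*, the E2F letters TTTCGCGC (0.323%) in that of *Bcl2l1*, and the TCF/LEF letters CTTTGAA (5.14%) in that of *Bax*. CATG, a part of p53 sites, was in those of *Bcl2l1*, *Bax* and *Bad* and in 61.1% of all promoters. The STAT letters TTCNNNGAA (8.3%), the NF-κB motif (0.155%), TATAAA (13.6%) and the CRE TGACGTCA (1.79%) were in none of the 15. No promoter of *Bcl2* held any of the 9 motifs. A match of letters is a description of these windows and not a bound site.

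Some of the genes share their place in the genome with others (RefSeq, GRCm38.p6). *Bcl2* (chr1:106538176-106714290) overlaps *Mir3473f* and *Gm37053*, *Bcl2l11* (chr2:128126038-128162547) overlaps *Acoxl*, *Bcl2l1* (chr2:152758732-152833803) overlaps *Cox4i2* and *Gm32211*, and *Bid* (chr6:120893119-120917062) overlaps *Gm17812*. *Bak1* (chr17:27019812-27028627) overlaps *Ggnbp1*, and *Bad* (chr19:6941861-6951905) overlaps *Gpr137* and *Gm19053*. *Mcl1* (chr3:95656944-95663179), *Bax* (chr7:45461695-45466903), *Bbc3* (chr7:16308398-16318334) and *Pmaip1* on chromosome 18 overlap no other gene. The kit marks strand, but the strand setting of the counting was not given in the sources used here, so reads of the overlapping genes cannot be told apart from those of the 6 genes named with them.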

How the data were processed

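Total RNA of sorted cells gave 12 stranded libraries. The authors used DRAGEN for mapping to mm10, Rsubread for counting and DESeq2 for size factors, and deposited the counts divided by these factors, a normalized signal. Annotation, strand setting and tool versions are not given in the sources used here. Whole reads (within 0.001) were recovered for 100% of values. The table held 0 columns that were not used.

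A gene was tested if 3 or more libraries had 5 or more normalized counts (15587 genes). A limma model (version 3.58.1, R 4.3.3) of log2(value + 1) took the 4 group means, with a variance trend and 8 residual degrees of freedom. The Benjamini-Hochberg adjustment ran over all genes, and contrasts and the interaction came from this 1 fit. The same model was also run on simulated reads whose means and dispersion were taken from these data, with the outcome not given here. A limma p value sets a difference of group means against the spread between libraries within groups. This spread is pooled over the 4 groups, with 3 libraries each, and drawn towards the variance trend. The main fit leaves the replicate number out. Symbols came from RefSeq for 16749 genes, and 774 stayed unnamed.

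Same-numbered libraries deviated together, except between TEM and naïve YFP+ cells. After removal of group means they correlated at 0.180, 0.338 and 0.356 between YFP fractions in TEM and at 0.306, 0.491 and 0.360 in naïve cells. Between TEM and naïve YFP- cells the coefficients were 0.168, 0.137 and 0.232. The largest coefficients between different numbers were -0.04, 0.02 and -0.02 in the same order of comparisons. In the YFP+ fraction the coefficients were 0.204, -0.02 and 0.06, and the largest between different numbers was 0.08. *Xist* was at 11867 or more in replicates 1 and 2 and *Ddx3y* at 3869 or more in replicate 3, so sex was balanced between groups. Replicates of a group differed beyond counting error.

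All 10 genes were named. Of each of the 4 pathway lists, the 4 genes with the smallest adjusted p of at most 0.05 in the TEM YFP comparison and the 4 with the smallest in YFP- TEM against naïve cells were named, and for *Bcl2* and *Bcl2l11* the 3 nearest genes. Some genes that this rule names are not reported here by name, and they stay in the counts over their list. *Foxo1* in the TEM comparison, *Foxp3*, *H2-Ab1*, *H2-Aa*, *Klk1*, *Ncr1*, *Ccr9*, *C1qa*, *Mertk* and *Fcgr1* were named after their values were seen. So were the sorting markers and list genes called only by another tool or with the block. The members and lists were chosen with earlier results of these data known. Alternatives were other pseudocounts, filters and scalings, a fit of the compared libraries only, the replicate block, no variance trend, edgeR 4.0.16 and DESeq2 1.42.0 on recovered reads, an added fold threshold, and each library left out.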

Additional observations from a re-analysis of the deposited data

Results flagged for a closer look

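The difference of *Bcl2* between YFP+ and YFP- cells was not the same in TEM and naïve cells. The interaction was 0.80 on the log2 scale (SE 0.15, limma adjusted p = 0.0109), with log2 fold changes of 1.16 in TEM and 0.36 in naïve cells, and *Bcl2* was higher in YFP+ than in YFP- cells in 3 of 3 replicate numbers of both. The YFP- TEM libraries, which had the lowest *Bcl2*, also had the highest summed dendritic cell markers, whose part in the difference was not tested.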

How the results depend on the processing

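Of the 10 genes, 4 were called in the TEM YFP comparison, and leaving out single libraries gave 1 to 4 (1 without replicate 3 of YFP- TEM cells). It was 2 without a variance trend and 2 with a fold threshold added (1 on the log2 scale), but 5 with quantile normalization or the replicate block and 6 in DESeq2 with the block. In naïve cells the count was 0, and 1 in DESeq2 with the replicate block. Between TEM and naïve cells it went from 9 to 5 in the YFP- fraction with the fold threshold, and from 8 to 5 with quantile normalization and 3 with the fold threshold in the YFP+ fraction. In the interaction it went from 1 to 2 with the replicate block, 2 in DESeq2, 3 in DESeq2 with the block and 0 with the fold threshold. The replicate block ended no call of the 10 genes. A fit of the compared libraries only cannot be made for the interaction.

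Over single genes and settings, 1141 values kept direction and side of the threshold, 22 lost the call, 9 gained it and 18 changed sign. All changes of sign were in genes not called. With quantile normalization the interaction was -0.034 for *Mcl1* and 0.017 for *Bad*. With single libraries left out, the naïve log2 fold change ranged from -0.17 to 0.015 for *Mcl1*, -0.0029 to 0.12 for *Bax*, -0.13 to 0.17 for *Bcl2l11*, -0.11 to 0.061 for *Bad* and -0.26 to 0.47 for *Pmaip1*. The interaction ranged from -0.072 to 0.11 for *Mcl1* and -0.047 to 0.44 for *Bbc3*, and the YFP+ TEM against naïve value of *Bax* from -0.086 to 0.027. *Bcl2l11* in the TEM comparison also lost its call with a pseudocount of 0.1 (adjusted p = 0.0614), without the variance trend (0.106) and in the fit of the compared libraries (0.0643), and *Pmaip1* without the trend (0.0713). The cause was not tested.

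Over all genes, the TEM count of 1087 was 1869 with the block, 2416 in DESeq2 with the block and 638 without replicate 3 of YFP- TEM cells. The naïve count of 1 ranged from 0 (compared libraries only) to 61 (DESeq2 with the block), and was 3 with a pseudocount of 0.1, 2 with TMM or edgeR, 6 with the block and 12 in DESeq2. The interaction count of 554 was 890 with the block, 838 in DESeq2, 1241 in DESeq2 with the block, and 346 and 279 without replicates 1 and 3 of YFP- TEM cells. With 3 libraries a group, small differences may go unseen at this depth.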
